A study of Mus musculus with 11 samples.

Results

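The Wdr genes are a family named for the WD repeat. In these data, 15 of 55 Wdr genes carried an RFX peak at a gene end in mouse ependymal cells. The 55 genes are the protein-coding genes of the RefSeq annotation of GRCm38 whose symbol is Wdr followed by a number, out of 21887 protein-coding genes. Left out by the rule were 6 members known for intraflagellar transport and axonemal dynein (Wdr19, Wdr34, Wdr35, Wdr60, Wdr63 and Wdr78), which serve below as a comparison. A gene is called bound by an RFX when the summit of a peak, its point of strongest signal, lay within 1 kb of either end of the gene.

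The binding data are ChIP-seq, which recovers and sequences the DNA fragments that an antibody against a protein pulls down. There were 6 ChIP samples, 2 per RFX, and 5 input samples of unselected chromatin, of which RFX1 and RFX2 had 2 each and RFX3 had 1. All samples came from cells of the lateral brain walls of wild-type OF1 mice, labelled embryonic tissue and age P0, that were turned into ependymal cells in culture. For each RFX, 1 peak list that merges its replicates was used, of 7440 peaks in the RFX1 list and 9318 in the RFX3 list, with RFX2 far shorter. The lists hold no expression values, so the cell type could not be checked against its markers, and no value below has a replicate error. Such a culture is a bulk sample, in which a peak in fewer cells and weaker binding in each cell cannot be told apart.

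A WD repeat is a short stretch of protein that ends in tryptophan and aspartate, and several of them fold into a propeller on which other proteins dock. WD-repeat proteins therefore serve in unlike machines, from ribosome assembly and histone methylation to the cilium. The RFX family are transcription factors with a winged-helix domain. They recognise the X-box, a pair of inverted sites of the form GTTGCC held a few bases apart, and are known as activators of cilium genes. Ependymal cells line the brain ventricles and carry many motile cilia that move cerebrospinal fluid.

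The DNA under the summits shows what some of the RFX sites at these genes look like. The stretches are from RefSeq promoter windows of GRCm38.p6, run 5′ to 3′ in the direction of the gene, and hold up to 50 bases on each side of a summit, no further than 30 bases past the start. Capitals mark matches to a degenerate X-box consensus with both arms, and single GTTGCC or GTTGCT sites on either strand. The first 4 are Wdr genes with strong RFX1 peaks, on the minus strand of chr17:25861486-25861586, the minus strand of chr4:62470870-62470950, the minus strand of chr6:83156406-83156506 and the plus strand of chr7:79743096-79743178.
Wdr90: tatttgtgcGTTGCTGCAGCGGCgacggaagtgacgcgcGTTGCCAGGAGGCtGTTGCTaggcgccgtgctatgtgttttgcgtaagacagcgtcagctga
Wdr31: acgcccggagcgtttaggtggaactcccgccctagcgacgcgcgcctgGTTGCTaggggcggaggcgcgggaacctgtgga
Wdr54: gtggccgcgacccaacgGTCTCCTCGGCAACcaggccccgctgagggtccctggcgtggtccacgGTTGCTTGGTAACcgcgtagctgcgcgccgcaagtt
Wdr93: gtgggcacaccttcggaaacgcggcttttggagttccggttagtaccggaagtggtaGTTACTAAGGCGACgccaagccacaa

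The stretch of Wdr54 held 2 matches with both arms, 1 on each side of the summit. The stretch of Wdr31 held a single GTTGCT with its middle 0.5 bp from the RFX1 summit and no consensus match. In Wdr90 the nearest such site lay 5.5 bp from the RFX1 summit. Not every strong site held a match. The stretch of Wdr27, not printed here, held none of either kind. Its RFX1 −log10 q of 104 was above those of Wdr54 (101) and Wdr93 (90.5).

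A second set shows 3 of the 4 genes bound by 1 RFX alone; no window covers the summit of the other, Wdr49. They lie on the plus strand of chr3:108591585-108591685 (Wdr47, RFX3), chr2:38998229-38998329 (Wdr38, RFX1) and chr9:119894751-119894851 (Wdr48, RFX1).
Wdr47: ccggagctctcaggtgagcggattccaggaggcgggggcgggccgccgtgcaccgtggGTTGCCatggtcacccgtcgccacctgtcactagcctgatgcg
Wdr38: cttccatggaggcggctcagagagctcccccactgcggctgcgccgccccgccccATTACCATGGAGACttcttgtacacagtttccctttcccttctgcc
Wdr48: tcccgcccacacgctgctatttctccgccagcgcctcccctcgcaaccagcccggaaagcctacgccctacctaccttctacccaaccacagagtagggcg

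The stretch of Wdr48 held no match of either kind. Wdr47 held 1 GTTGCC, with its middle 10.5 bp from the RFX3 summit. Wdr38 held 1 consensus match and no GTTGCC or GTTGCT.

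RFX1 bound 14 of the 55 Wdr genes (25.5%, 95% interval 14.7 to 39.0), against 9.05% of all protein-coding genes. RFX3 bound 12 of 55 (21.8%, 11.8 to 35.0), against 7.94% of all protein-coding genes. RFX2 bound 5 of 55 (9.09%, 3.02 to 19.95), against 2.08% of all protein-coding genes. Any RFX bound 15 of 55 (27.3%, 16.1 to 41.0), against 10.1% of all protein-coding genes. The share was thus higher among the Wdr genes for each RFX. The lower bounds of the Wdr intervals, which are exact Clopper-Pearson intervals for the counting of genes only, lay above the shares of all genes. No test was made, since the lists carry no replicate values, and the members were chosen with results of these lists in view.

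All 3 RFX bound 5 Wdr genes, Wdr7, Wdr31, Wdr66, Wdr88 and Wdr90, which is 9.09% of the family against 2.06% of all protein-coding genes. RFX1 and RFX3 without RFX2 bound 6, Wdr13, Wdr24, Wdr27, Wdr54, Wdr73 and Wdr93, or 10.9% against 4.82% of all protein-coding genes. RFX1 alone bound Wdr38, Wdr48 and Wdr49, or 5.45% against 2.14% of all protein-coding genes. RFX3 alone bound 1, Wdr47, or 1.82% against 1.06% of all protein-coding genes. Every Wdr gene in the RFX2 set was also in the RFX1 and RFX3 sets, and in the whole annotation 451 of the 455 genes bound by RFX2 were bound by all 3. The RFX2 list is much the shortest, and a peak missing from it was not called, which does not show that RFX2 was absent.

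**Figure D1:**
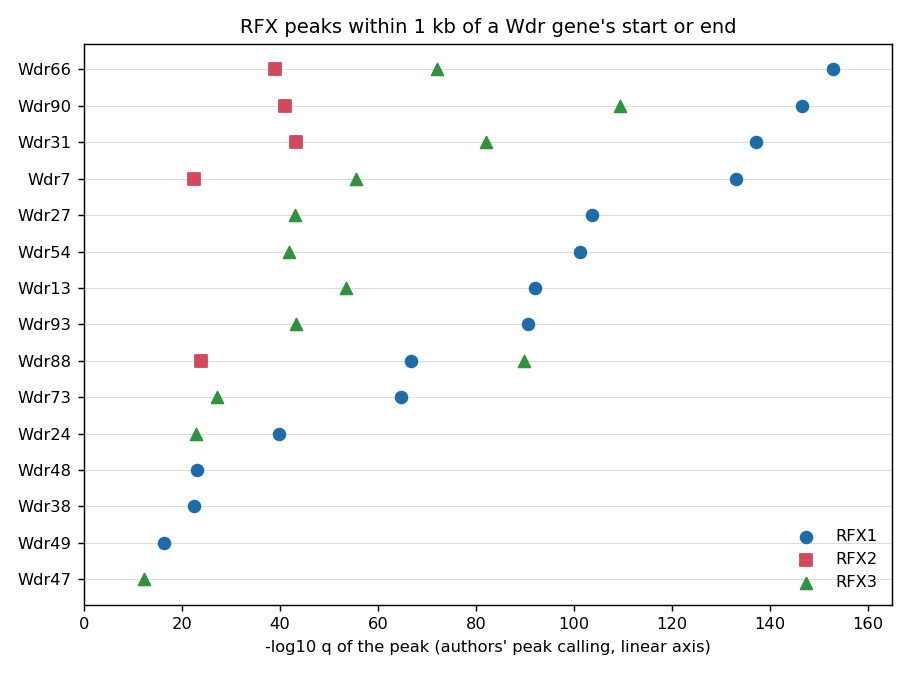
Peaks within 1 kb of an end of the 15 bound Wdr genes, with the −log10 q that the authors' peak calling gave on a linear horizontal axis, 1 marker per RFX. RFX1 peaks run between 16.3 at Wdr49 and 153 at Wdr66; values of different RFX come from separate lists and are not on a common footing.

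Of the 15 Wdr genes placed on a cilium and centriole list, 9 were bound by at least 1 RFX. RFX1 bound 8 of them, RFX2 bound 3 and RFX3 bound 7. Over all protein-coding genes, the shares were 10.1% for any RFX, 9.05% for RFX1, 2.08% for RFX2 and 7.94% for RFX3. For 6 genes of the list, Wdr38, Wdr49, Wdr54, Wdr64, Wdr93 and Wdr95, the tie to cilia is less certain, and without them 5 of 9 were bound. The scores below, −log10 q and fold enrichment, are the authors' own values for each peak and are read within each list.

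Wdr66, also called Cfap251, belongs to a calmodulin- and spoke-associated complex at the base of the radial spokes, as known from Chlamydomonas. Its RFX1 peak, enriched 15-fold, had a −log10 q of 153 and ranked 140 of 7440 peaks. The RFX3 peak was enriched 5.80-fold with a −log10 q of 72.0, and the RFX2 peak 9.01-fold with 39.0. The RFX1 score was the highest among the Wdr genes, and the 3 summits lay within 7 bp of one another. They lay 361 to 368 bp inside the end of the gene at chr5:123251725-123327484, and 1695 to 1702 bp before the start that RefSeq's promoter table lists for Wdr66.

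Wdr90, known in human cells as POC16, is a protein of the centriole wall. It had a −log10 q of 147 for RFX1, 109 for RFX3 and 41.0 for RFX2, with fold enrichments of 13.98, 7.18 and 6.92 in the same order. Its RFX3 peak ranked 204 of 9318, the best RFX3 rank in the family. All 3 summits lay 20 to 33 bp before the start of the gene at chr17:25844734-25861515.

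Wdr31, known from Caenorhabditis elegans to act in cilia, had the highest RFX1 fold enrichment of the family, 17.8. Its −log10 q was 137 for RFX1, 82.1 for RFX3 and 43.3 for RFX2, the last with a fold enrichment of 11.5 and a rank 25.9% of the way down its list. The RFX1 and RFX3 summits lay 1 and 8 bp before the listed RefSeq start, and the RFX2 summit 21 bp after it. All 3 RFX thus had their summits within 29 bp of one another at the start of Wdr31.

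Wdr54, Wdr93 and Wdr73 carried RFX1 and RFX3 but no RFX2 peak. Wdr54 had a −log10 q of 101 for RFX1 and 41.8 for RFX3, and fold enrichments of 13.7 and 4.73 in that order. Wdr93 had 90.5 for RFX1 and 43.2 for RFX3, with fold enrichments of 12.7 and 5.50. Measured from the outer ends of genes, the summits at both were nearer to another protein-coding gene. These were 1700003E16Rik, 52 bp from the RFX1 summit of Wdr54, and Pex11a, a gene of peroxisome division, 15 bp from that of Wdr93. However, the RFX1 and RFX3 summits of Wdr93 lay 3 and 6 bp from a RefSeq start of Wdr93 itself. Wdr73, a gene of Galloway-Mowat syndrome whose protein is found at spindle poles, had 64.7 for RFX1 and 27.0 for RFX3, with summits 44 and 47 bp inside its start.

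The other 3 bound genes of the cilium and centriole list had weak peaks of 1 RFX. Wdr47 is a microtubule protein needed for the central pair of ependymal cilia in the mouse, and it was the only Wdr gene with an RFX3 peak alone. That peak was enriched 3.04-fold with a −log10 q of 12.3 and ranked 7247 of 9318, and its summit lay 98 bp before one of the 2 RefSeq starts of the gene. Wdr38 had an RFX1 −log10 q of 22.4 and Wdr49 had 16.3, which ranked 4664 and 5975 of 7440. The unbound genes of this list were Wdr11, which acts in Hedgehog signalling and ciliogenesis, Wdr44, a partner of Rab11, Wdr62, a centrosome gene of microcephaly, Wdr92, a factor of dynein arm preassembly, and Wdr64 and Wdr95.

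Of 9 Wdr genes of ribosome assembly, 0 were bound, which allows a share of up to 33.3%. They include Wdr12 of the PeBoW complex and Wdr3, Wdr36, Wdr43, Wdr46 and Wdr75 of the small-subunit processome. Of 10 genes of chromatin, RNA and tRNA, 0 were bound, which allows a share of up to 30%. Among them are Wdr5 and Wdr82, of the histone H3 lysine methyltransferase complexes, Wdr77, the partner of Prmt5, Wdr33, of polyadenylation, and Wdr4 and Wdr6, of tRNA methylation. Both limits lie above the 10.1% of all protein-coding genes, so a share as low as that was not detectable as different with 9 and 10 genes.

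Of 8 genes of endosomes, lysosomes and autophagy, 2 were bound (25%, against 10.1% of all protein-coding genes). Wdr7, the beta part of Rabconnectin-3 that works with the proton pump of acidic vesicles, had one of the strongest sites of the family. Its RFX1 peak was enriched 14.4-fold with a −log10 q of 133, its RFX3 peak 6.49-fold with 55.6 and its RFX2 peak 7.28-fold with 22.4. The summits lay 60 to 102 bp inside the gene, and 4 to 27 bp from an end of the noncoding RNA gene Gm41754. Wdr24, a part of the GATOR2 complex that signals amino acids to mTORC1, had weaker peaks, with a −log10 q of 39.8 for RFX1 and 22.8 for RFX3, and its RFX1 summit lay 239 bp from an end of Jmjd8. Wdr59, also of GATOR2, Wdr41, of the C9orf72 complex, and Wdr45, of autophagy, were unbound, as were Wdr72, Wdr81 and Wdr91.

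Of 4 genes of ubiquitin and actin, 1 was bound (25%, against 10.1% of all protein-coding genes), which is too few genes to read as a difference. Wdr48 is UAF1, the cofactor of several deubiquitinases, and its RFX1 peak was enriched 4.77-fold with a −log10 q of 23.0. The summit lay 94 bp before the start of Wdr48 and 111 bp from an end of the noncoding RNA gene Gm2449. Wdr20, which works with the same deubiquitinases, Wdr26, of the CTLH ubiquitin ligase, and Wdr1, a cofactor of cofilin in actin turnover, were unbound.

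Of the remaining 9 genes, 3 were bound (33.3%, against 10.1% of all protein-coding genes). Wdr88 had an RFX3 peak enriched 15.1-fold with a −log10 q of 89.8, which ranked 378 of 9318. Its RFX1 peak was enriched 11.6-fold with a −log10 q of 66.6 and ranked 1405 of 7440. Its RFX2 peak was enriched 9.91-fold with a −log10 q of 23.8. The Wdr88 summits were also the farthest from a gene end in the family, 678 to 744 bp outside it. They lay 675 to 741 bp from an end of the noncoding RNA gene Gm38989. The tRNA gene n-TTagt9 had an end 646 to 712 bp from them. Wdr13 on chromosome X had a −log10 q of 92.1 for RFX1 and 53.5 for RFX3, 307 and 264 bp inside its start. Wdr27 had 104 for RFX1 and 43.1 for RFX3, with the RFX1 summit 65 bp from an end of 1600012H06Rik and 5 bp past its own RefSeq start. Wdr17, Wdr25, Wdr37, Wdr53, Wdr86 and Wdr89 were unbound.

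**Figure D2:**
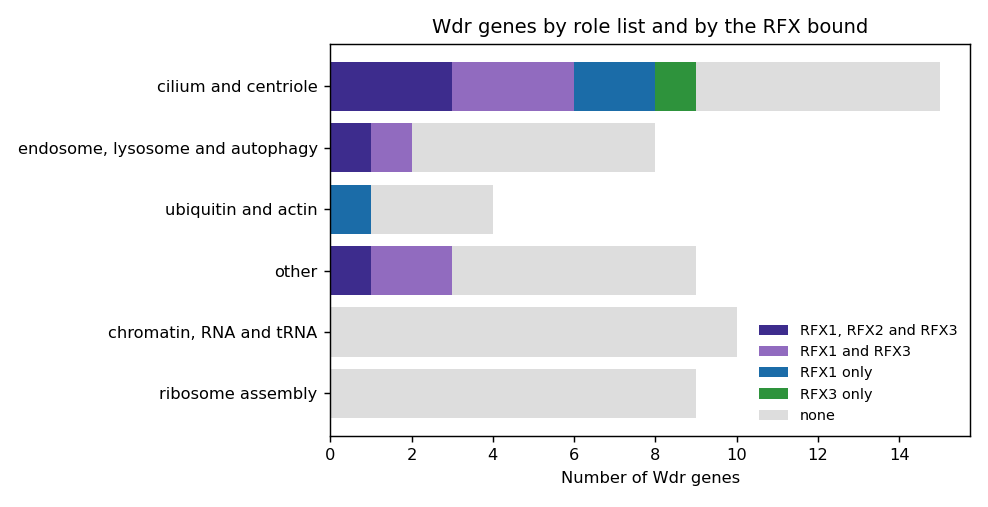
Number of Wdr genes (horizontal axis) in each role list (rows), split by the set of RFX that bound them. Of the 15 genes of the cilium and centriole list 9 were bound, and 0 of the 9 ribosome assembly genes and 0 of the 10 chromatin, RNA and tRNA genes.

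The sites at Wdr genes had higher median scores than those at all bound genes. Against whole lists, which also hold peaks far from genes, the median fold enrichment at Wdr genes was higher for RFX1 (12.1 against 7.51) and lower for RFX2 (9.01 against 9.96) and RFX3 (5.65 against 7.45). For RFX1 the median −log10 q over the 14 bound Wdr genes was 91.3, against 49.1 over the 1980 bound protein-coding genes, and the median fold enrichment was 12.1 against 8.49. For RFX3 the median −log10 q was 48.3 at Wdr genes against 32.6 at all bound genes, and the median fold enrichment 5.65 at Wdr genes against 4.84 at all bound genes. For RFX2 the median −log10 q was 39.0 at Wdr genes against 32.3 at all bound genes, and the median fold enrichment 9.01 against 8.74. The spread within the family was wide, with RFX1 ranks of 1.88% to 80.3% of the way down the list and a median of 10.1%, against a median of 29.1% for all bound genes.

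**Figure D3:**
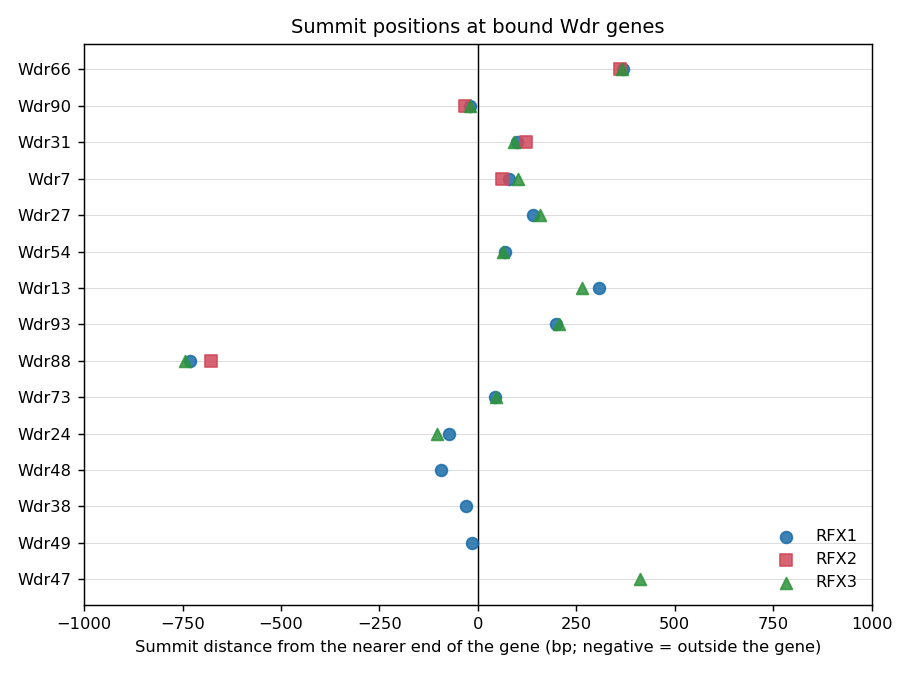
Summit distance (bp, horizontal axis) from the nearer end of each bound Wdr gene, negative outside the gene, with 1 marker per RFX and genes ordered by their best score. The summits of different RFX lie close together at each gene, and Wdr88 is the only gene with summits more than 500 bp from its end.

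Where several RFX bound a Wdr gene, their summits fell at almost the same place. RFX1 and RFX3 summits were 1 to 43 bp apart at the 11 Wdr genes that both bound, with a median of 9 bp, against 13 bp over 1507 genes bound by both. RFX1 and RFX2 summits were 7 to 54 bp apart at 5 Wdr genes (median 19 bp, against 10 bp over 455 genes). RFX2 and RFX3 summits were 5 to 66 bp apart (median 29 bp, against 15 bp over 451 genes). Spacings of this size at Wdr genes were therefore common to genes bound by several RFX.

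Wherever the reference gave a strand, the bound end was the outer end on the start side of the gene. This held for 11 of 11 Wdr genes with RFX1, 9 of 9 with RFX3 and 3 of 3 with RFX2, against 90.7%, 90.0% and 92.6% of bound protein-coding genes in the same order. The outer end is not always a listed RefSeq start. The Wdr66 summits lay 1695 to 1702 bp before its listed start, and Wdr49 and Wdr66 were both lost with gene starts only. Wdr7, Wdr24 and Wdr88 had no strand in the tables used. The RFX1 summits lay a median of 86.5 bp from the end of a Wdr gene, against 149 bp over all bound genes. Only summits that also lay within 1 kb of another coding gene made the call at 4 of the 14 Wdr genes bound by RFX1 (28.6%, against 34.0% of all bound genes) and 4 of the 12 bound by RFX3 (33.3%, against 31.2%), and at 0 of the 5 bound by RFX2 (against 38.2%).

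The window had a clear margin in this family. The outermost summit inside it was that of Wdr88 for each RFX, at 732 bp for RFX1, 678 bp for RFX2 and 744 bp for RFX3. The nearest one outside was at 2398 bp from Wdr6 for RFX1, 2409 bp from Wdr6 for RFX2 and 2390 bp from Wdr17 for RFX3. The Wdr17 site is a strong one, with an RFX1 fold enrichment of 14.7, a −log10 q of 104 and a rank of 540 of 7440, and an RFX3 −log10 q of 41.3. Its RFX1 summit lay 212 bp before another RefSeq start of the gene. The stretch there, on the minus strand of chr8:54724530-54724618, held a match with both arms, with its middle 27 bp from that summit.
Wdr17: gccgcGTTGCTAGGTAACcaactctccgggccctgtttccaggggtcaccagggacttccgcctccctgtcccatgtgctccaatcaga

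Wdr17 is counted as unbound throughout, since the rule uses only the outer ends of a gene. Of the 40 Wdr genes bound by none, 9 had a summit between 1 and 10 kb from an end, 8 had one inside the gene more than 1 kb from its ends, and 27 had neither. The nearest such summits lay 2390 bp from Wdr17, 2398 bp from Wdr6, 3694 bp from Wdr43, 4782 bp from Wdr95, 5277 bp from Wdr72, 5980 bp from Wdr1, 6690 bp from Wdr81, 7736 bp from Wdr62 and 9789 bp from Wdr46. The same shares over all unbound protein-coding genes were not computed, so the counts of 9, 8 and 27 are not a result about the family. The site nearest to Wdr6 carried all 3 RFX, with a −log10 q of 98.2 for RFX1, 52.5 for RFX3 and 22.0 for RFX2, and its summits lay inside Dalrd3.

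In promoter windows, taken as 250 bases before to 50 bases after a RefSeq start, 11 Wdr windows held an RFX summit and 44 did not. The 11 belong to 10 genes, since Wdr93 has 2 overlapping windows over the same summit, and 1 of the 10 is Wdr17. Per gene, the consensus described next was in 6 of 10, against 74.1% of 1153 genes with such a window, and GTTGCC in 4 of 10, against 44.2%. The consensus with both arms was found in 7 of the 11 (63.6%), against 73.6% of the 1233 windows of all genes with a summit. Among windows with no summit it was in 43.2% of Wdr windows and 31.9% of all windows. The single site GTTGCC was in 5 of the 11 Wdr windows with a summit (45.5%), against 44.2% of all such windows. Among windows with no summit it was in 4.55% of Wdr windows, against 10.7% of all windows. For GTTGCC the share in Wdr windows with a summit was near that of all windows with one, and for the consensus it was lower, with 11 windows to count.

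GTTGCC or GTTGCT, a pair chosen after the stretches above were read, was in 8 of the 11 Wdr windows with a summit (72.7%), against 67.2% of all windows with a summit and 24.4% of all windows. For RFX1, 4 of 10 Wdr windows (40%) had such a site within 25 bp of the summit, against 53.4% of 1101 windows. For RFX3 it was 6 of 9 (66.7%), against 51.5% of 979 windows, and for RFX2 2 of 2, against 67.7% of 291. In both Wdr93 windows the site lay 89.5 bp from the RFX1 summit. The paired sites GTTNCC and GGNAAC with 0 to 3 bases between them were in 0 of the 11, against 8.19% of all windows with a summit and 0.762% of all windows. The best ungapped match to that pair with 2 bases between, scored on its 10 fixed letters, reached at least 9 in the windows of Wdr54 and Wdr47 (18.2% of 11), against 28.4% of all windows with a summit. The middle of the consensus match lay a median of 13.5 bp from the RFX1 summit in 7 Wdr windows, against 8.5 bp in 837 windows. Both overlapping Wdr93 windows are among the 7 and hold the same match, at 13.5 bp. In 5 of the 7 a match lay within 25 bp of the summit (71.4%, against 73.1% of the 837). The match counted for Wdr31 lay 95 bp from its RFX1 summit, outside the stretch printed above. All motifs were searched on both strands, the single and paired sites can overlap the consensus, and a match is a description and not a shown site.

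**Figure D4:**
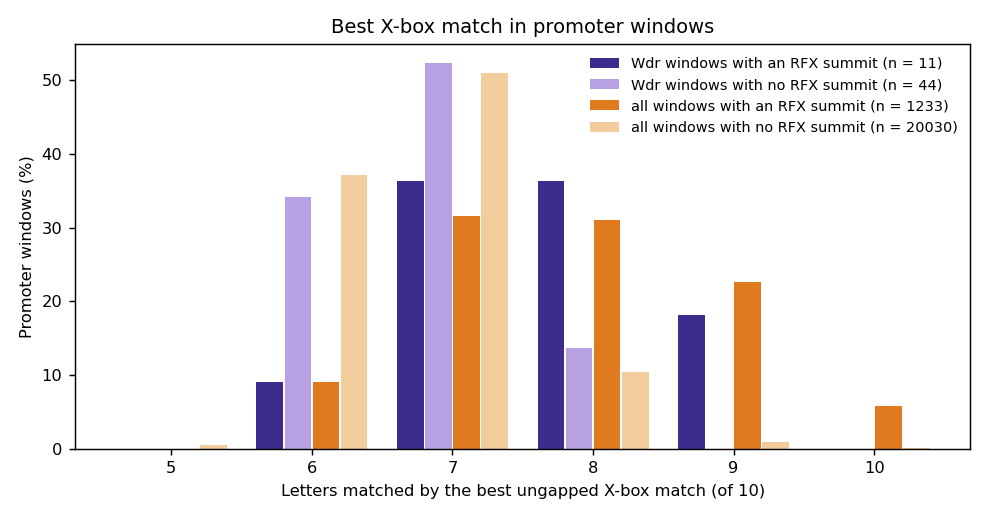
Share of promoter windows (%, vertical axis) by the number of the 10 fixed X-box letters that the best ungapped match holds (horizontal axis), for Wdr windows with and without an RFX summit and for all windows with and without one. Of Wdr windows with a summit 54.5% reach 8 or more letters, against 13.6% of Wdr windows with none; the Wdr bars with a summit stand for 11 windows.

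The 6 Wdr genes of intraflagellar transport and axonemal dynein, which the family here leaves out, were all bound by RFX1 and RFX3, and 3 of them by RFX2. The RFX1 sites at the 14 Wdr genes that RFX1 bound had a median −log10 q of 91.3, against 67.2 at those 6 genes. For RFX3 the order of the −log10 q was the other way, with 48.3 at the 12 Wdr genes that RFX3 bound against 64.1 at those 6. The median fold enrichments were 12.1 against 9.30 for RFX1, and close for RFX3, at 5.65 against 5.64. For RFX2 the median −log10 q was 39.0 at 5 Wdr genes against 19.3 at 3 of those 6, and the fold enrichment 9.01 against 6.54. Among WD-repeat genes with other symbols, RFX1 and RFX3 each bound 12 of 21 genes on a cilium list and 13 of 88 genes on a list of other roles, and RFX2 bound 4 and 2 of them. The shares on the list of other roles were 14.8% for RFX1 and for RFX3, against 9.05% and 7.94% of all protein-coding genes, and 2.27% for RFX2, near the 2.08% of all protein-coding genes. The cilium and centriole genes among the 55 Wdr genes stood at 53.3% for RFX1, against 57.1% (95% interval 34.0 to 78.2) on the cilium list of other symbols. Without the 6 less certain genes, RFX1 bound 4 of 9 (44.4%). The lists are small and were written with earlier results of these data known, so how alike these shares are was not tested.

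**Figure D5:**
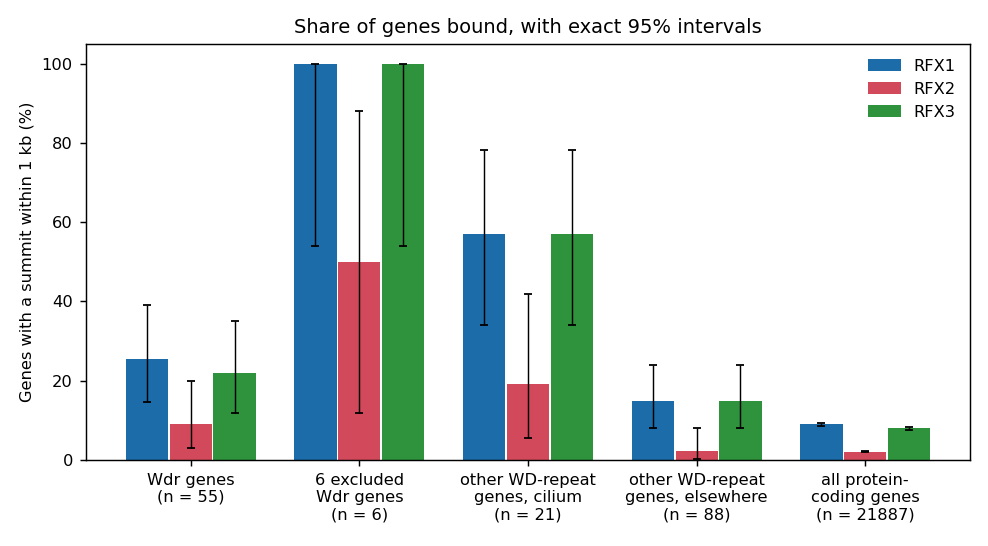
Share of genes with a summit within 1 kb of an end (%, vertical axis) for the 55 Wdr genes, the 6 Wdr genes left out, other WD-repeat genes by list, and all protein-coding genes, with exact 95% intervals as bars for the counting of genes only. The Wdr genes stand at 25.5% for RFX1 and all protein-coding genes at 9.05%.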

How the data were processed

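Per the submitters' processing notes, the tools were MACS2 2.0.10.20130520, Bowtie 0.12.7 and CASAVA 1.8.2 on GRCm38, with no role given for each. The authors deposited 1 list of reproducible peaks per RFX, with replicates merged, and peak names that read as calls on all ChIP samples of an RFX. Not given in the sources used here are the criterion of reproducibility, the control and the sequencing depth. The RFX2 antibody lot differed between replicates, per the labels. The fold enrichment, a ratio, the −log10 q and the summit offset are the authors' deposited values. The deposited score is the whole part of 10 times the −log10 q in all peaks, and the deposited −log10 p columns (3 in all) were not used.

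Genes, starts and promoter sequences came from RefSeq tables of GRCm38.p6, and 44 of the 55 Wdr genes matched a promoter window. Those without one are Wdr7, Wdr24, Wdr25, Wdr33, Wdr36, Wdr55, Wdr61, Wdr64, Wdr72, Wdr88 and Wdr95. Of the listed names of other WD-repeat genes, 109 matched. All 15 bound genes are named. The members, role lists and motifs were chosen with earlier results of these data known. Python 3.11.15, pandas 2.3.3, NumPy 2.4.6 and SciPy 1.17.1 were used, and the assignment of summits to genes was tested on simulated data. Intervals (95%, exact Clopper-Pearson) and the limit of a count of 0 (3 counts) cover counting only. The merged lists used here hold no values per sample, so no test across samples was made.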

Additional observations from a re-analysis of the deposited data

How the results depend on the processing

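No paired analysis was possible because the lists used here merge the replicates and no result comes from a test; for the same reason no replicate was left out. Of 61 recomputed counts, 51 stayed within 1.5 times the main one and 10 did not. With each list shortened to its best peaks, as many as the RFX2 list holds, RFX1 bound 8 Wdr genes (14.5%, against 3.10% of all protein-coding genes), RFX3 bound 5 (9.09%, against 2.07%), any RFX bound 9 (16.4%, against 3.64%), and RFX1 and RFX3 without RFX2 bound 0 (against 0.347%). With the better-scoring 50% of peaks, RFX2 bound 3 (against 1.13% of all protein-coding genes) and all 3 RFX bound 3 (against 1.10%), as Wdr7 and Wdr88 were lost. With gene starts only, for which 44 Wdr genes could be used, RFX2 bound 2 (4.55%, against 2.28%) and all 3 RFX bound 2 (4.55%, against 2.26%), and Wdr7, Wdr66 and Wdr88 were lost. With a summit given to the nearest coding gene only, RFX1 and RFX3 without RFX2 bound 3 (5.45%, against 3.998%), as Wdr27, Wdr54 and Wdr93 were lost. Without the 6 less certain genes, the bound cilium and centriole genes numbered 5. These settings use fewer peaks, genes or assignments, and gene starts only also moves the point measured from. Wdr66 has a promoter window, but its listed start lay 1695 to 1702 bp from its summits. The nearest-gene setting measured from outer ends, while the RFX1 summits of Wdr27 and Wdr93 lay 5 and 3 bp from their own RefSeq starts. Adding every RefSeq start, an alternative chosen after seeing the data, gained Wdr17. RFX1 then bound 15 Wdr genes (27.3%, against 10.1% of all protein-coding genes) and RFX3 bound 13 (23.6%, against 8.96%). The depth behind each list is unknown, so a Wdr gene with no peak may have a site below what these lists could reach.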

Other observations

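Inside Wdr genes, more than 1 kb from both ends, RFX1 had a summit in 8 of 55 genes (14.5%, against 10.8% of all protein-coding genes), RFX3 in 9 (16.4%, against 12.0%) and RFX2 in 0 (against 2.30%). The Wdr genes are longer, with a median of 31692 bp against 17169 bp for all protein-coding genes, and the part of length in these shares was not tested. Wdr25, bound at neither end, held 4 RFX1 and 3 RFX3 summits, the strongest with an RFX1 −log10 q of 76.1 and an RFX3 −log10 q of 73.6. Wdr20 held 2 of each, the strongest with an RFX1 −log10 q of 78.3 and an RFX3 −log10 q of 52.1. Wdr95 held 2 RFX1 and 3 RFX3 summits, and its strongest RFX1 peak, 4782 bp inside the gene, had a fold enrichment of 14.05. Wdr49, whose outer end on the start side carried RFX1 alone, held 2 RFX3 summits inside it, with −log10 q of 20.8 and 18.7.

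Some bound Wdr genes have a second site that lies at another coding gene. A site with all 3 RFX beyond the 3′ end of Wdr38 was 129 to 182 bp from an end of Rpl35, a ribosomal protein gene, and its RFX1 −log10 q of 86.3 exceeded the 22.4 at the start of Wdr38. A second RFX1 site of Wdr73 lay 3903 bp from its start and 110 bp from an end of Nmb, the neuromedin B gene. A second RFX1 site of Wdr24 lay 4749 bp from its end and 560 bp from an end of Stub1, a ubiquitin ligase gene, with a −log10 q of 66.7 against 39.8 at the end of Wdr24.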
